A study of Mus musculus with 4 samples.

Results

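The p53 family and its direct regulators were taken as 7 genes. These were the family members Trp53, Trp63 and Trp73, the p53 ubiquitin ligase gene Mdm2, its partner Mdm4, the deubiquitinase gene Usp7 and the phosphatase gene Ppm1d. Members were found by name in the gene lists that the authors attached to each accessible interval. Of 220733 intervals in the table, 67 named at least 1 of these genes, with 17 in R248W 1, 17 in R248W 2, 16 in WT 1 and 17 in WT 2. Of the 7 genes, 6 carried intervals, and these intervals merged into 19 regions of 69759 in all.

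Each library came from 50000 sorted LSK cells and was made by ATAC-seq, an assay that marks open DNA by where a transposase can cut. LSK stands for Lin-Sca1+Kit+, a bone marrow gate that holds blood stem cells and early progenitors. The R248W group had 2 libraries from p53R248W/+ mice, which carry 1 allele with an arginine-to-tryptophan change in the DNA-binding domain of p53 beside 1 wild-type allele. The WT group had 2 libraries from p53+/+ mice. The study asked how the mutant protein changes gene regulation in these cells. The labels give neither age nor the number of mice behind a library, so p-values measure only the spread between these libraries, which may be technical. ATAC-seq intervals do not read the Trp53 allele, and the genotypes rest on the labels.

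The p53 protein is a transcription factor that halts the cell cycle or triggers apoptosis after DNA damage, and it also helps to keep blood stem cells quiescent. Its level is set mainly by MDM2, which marks it for degradation, and MDM4, which binds and restrains it. USP7 removes ubiquitin from both p53 and MDM2, and PPM1D (WIP1) removes phosphates that DNA damage kinases place on p53. Mdm2 and Ppm1d are themselves switched on by p53, which closes negative feedback loops. The relatives p63 and p73 bind similar DNA; p63 is best known in stratified epithelium and p73 in neurons and multiciliated cells.

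The lists differed in length within each genotype. R248W 1 and WT 2 had 60385 and 62478 intervals, and R248W 2 and WT 1 had 51150 and 46720. In regions called in all 4 libraries the median signal was 95 in R248W 1, 62 in R248W 2, 59 in WT 1 and 96 in WT 2, so high and low libraries were split over both genotypes. All 11 LSK and stem cell markers examined, among them Kit, Cd34 and Meis1, had an interval in each library. Of these, 7 had one at the start, against 60.1% of genes in the table, with Ly6a, Gata2, Mecom and Tal1 the others. Of 6 T, NK and B cell markers, 0 had a start-site interval in any library, and 3 to 4 had any interval. Start-site intervals were present in all libraries for 2 of 4 erythroid, 1 of 5 granulocyte and monocyte, 1 of 3 mast cell and basophil and 3 of 4 stromal and endothelial markers. Per library, any interval was present for 3, 4, 1 to 2 and 4 markers of these sets, in the same order. These counts thus did not set the LSK markers apart from the stromal and endothelial ones. Read depth was unknown.

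Signal is the authors' highest-bin value of an interval, with bins of about 32 bases. Because no source gives a scaling between libraries, signals were also turned into ranks. The percentile of a region is its rank among the 40492 regions called in all 4 libraries, within each library, so all libraries are ranked over the same regions. Ranks can still follow the split between high and low libraries. At the interval over the Trp53 start they were 81.1 and 81.4 in R248W 1 and WT 2, against 87.1 and 86.6 in R248W 2 and WT 1. At the Ppm1d region 12842 bases into the gene they were 59.8 and 65.6, against 62.1 and 59.2, without that split. How many regions follow it was not counted. With 2 libraries against 2, the two-sided exact permutation test cannot go below p = 0.33, so no single difference could pass 0.05.

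**Figure D1:**
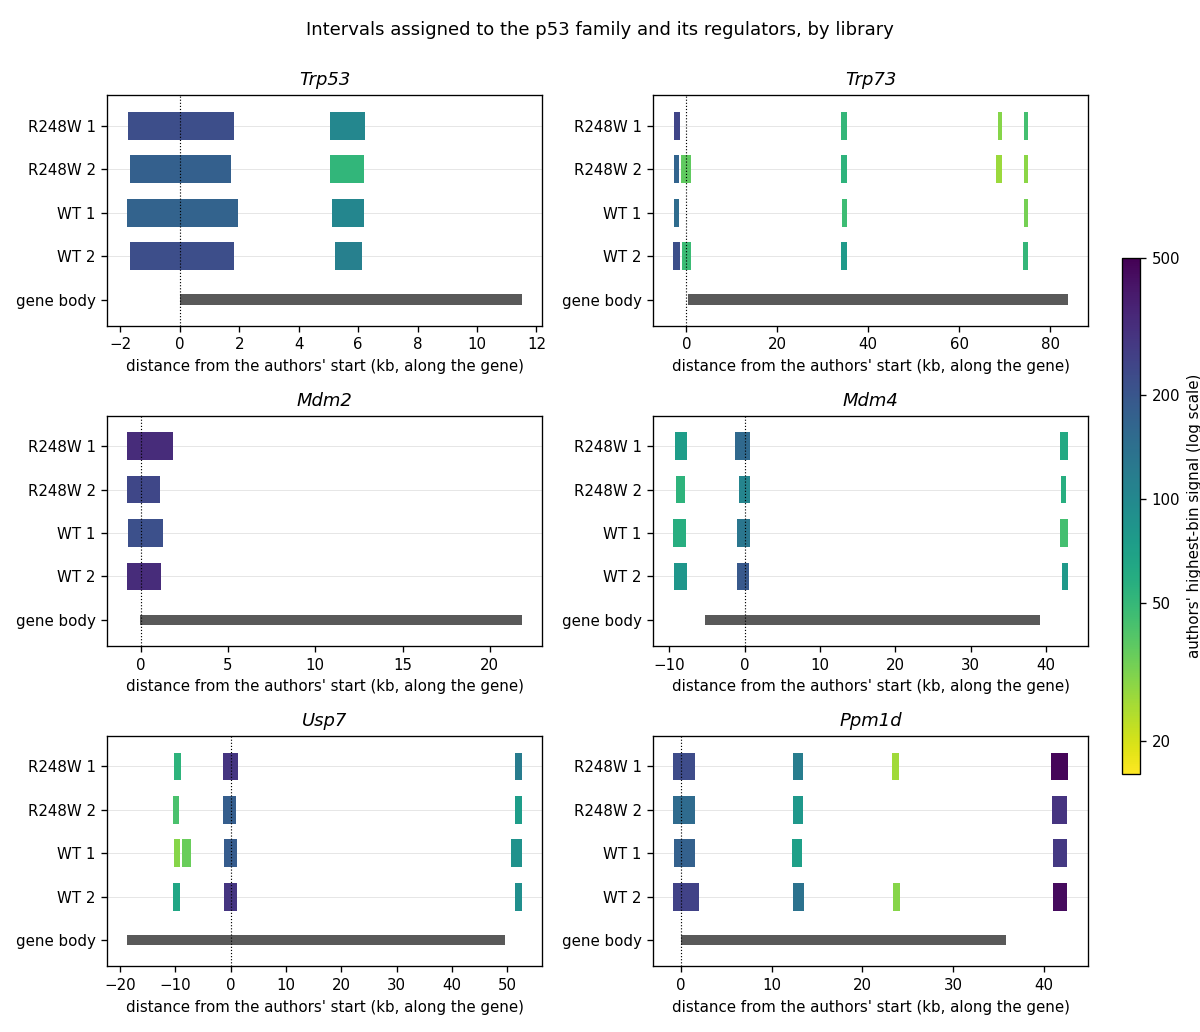
Intervals assigned to each member in the 4 libraries, with distance from the authors' start in kb along the gene on the x axis and the RefSeq gene body as a grey bar. Color gives the authors' highest-bin signal on a log scale. Mdm2 has a single interval per library, at its start, and the interval over the start of Trp73 is present in R248W 2 and WT 2 only.

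Accessible starts were present for 5 of the 7 members in every library, if counted by whether an interval covered the RefSeq start. These were Trp53, Mdm2, Mdm4, Usp7 and Ppm1d. Counted by position, 5 of the 8 RefSeq starts available for 6 members were covered in all 4 libraries, against 41.2% of all RefSeq starts. This count leaves out Trp63, which had no listed start and no interval in its span, so the members' share is raised. Counted by a summit (the highest bin) within 1 kb of the authors' start, 4 members passed, Mdm2, Mdm4, Usp7 and Ppm1d, against 60.1% of genes in the table. All 4 of them had a CpG island at that interval in all libraries, as did 81.9% of genes with such a start-site interval. By mean percentile over the 4 libraries these 4 start-site intervals ranked in the order Mdm2 (91.5 ± 1.23, SD, n = 4), Usp7 (88.2 ± 0.546), Ppm1d (84.4 ± 2.32) and Mdm4 (75.1 ± 4.28). Neighbours in this order were separate in range, with Mdm2 at 90.5 to 93.2, Usp7 at 87.5 to 88.8, Ppm1d at 81.8 to 87.3 and Mdm4 at 70.6 to 79.8. The start of Trp53 was not ranked, because the interval over it peaked at another gene's start.

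Trp53 lay under a long interval that it shared with Wrap53, the gene on the opposite strand whose product guides telomerase RNA. The interval measured 3570 bases in R248W 1, 3420 in R248W 2, 3717 in WT 1 and 3500 in WT 2 (chromosome 11, merged span 69578582 to 69582299, mm10). Longer intervals made up 1.27% of the list in R248W 1 and 0.933% in R248W 2, against 0.78% in WT 1 and 1.05% in WT 2. Its signal was 221 in R248W 1 and 177 in R248W 2, against 169 in WT 1 and 222 in WT 2. The summit did not lie at the start of Trp53 but 983 to 1063 bases upstream of it, 47 to 127 bases upstream of a RefSeq start of Wrap53. The start of Trp53 was nevertheless inside the interval in each library, which ran 1727 to 1940 bases past it into the gene. A second RefSeq start of Wrap53, at 69580250, was also inside the interval in all 4 libraries. In percentiles the interval stood at 81.1 and 87.1 in R248W 1 and R248W 2 and at 86.6 and 81.4 in WT 1 and WT 2. The genotypes overlapped fully, and the mean difference was 0.118 percentile points (exact permutation p = 1).

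The sequences of the Trp53 start and of the Wrap53 start nearest the summit are given, because the signal assigned to Trp53 peaks over the latter. They are RefSeq windows on GRCm38.p6 (mm10), 250 bases before to 50 bases after the start, written along each gene. In the Trp53 window (chr11:69580109-69580408, plus strand) capitals mark the E-box CACGTG. In the Wrap53 window (chr11:69579200-69579499, minus strand) they mark a run of 20 bases that recurs at Mdm2.
Trp53: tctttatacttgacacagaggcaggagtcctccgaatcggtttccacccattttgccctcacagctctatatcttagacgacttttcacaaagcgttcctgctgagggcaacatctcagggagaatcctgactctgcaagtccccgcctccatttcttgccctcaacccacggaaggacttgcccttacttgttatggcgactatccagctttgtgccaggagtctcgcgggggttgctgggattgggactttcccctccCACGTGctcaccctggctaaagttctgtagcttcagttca
Wrap53: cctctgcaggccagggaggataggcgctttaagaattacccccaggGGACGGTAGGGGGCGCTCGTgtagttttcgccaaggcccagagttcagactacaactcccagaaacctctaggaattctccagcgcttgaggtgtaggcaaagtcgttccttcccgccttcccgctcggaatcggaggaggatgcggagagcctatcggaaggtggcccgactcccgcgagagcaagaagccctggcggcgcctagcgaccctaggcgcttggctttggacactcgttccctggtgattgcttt
The E-box began 10 bases downstream of the Trp53 start, and 7.15% of all 32851 windows held 1 on either strand. The window of Trp53 had 10 CpG dinucleotides and that of Wrap53 21, against a median of 7 over all windows.

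The region inside Trp53 had the largest genotype difference of the 15 member regions called in all libraries. This interval of 903 to 1181 bases lay in the gene body, 5609 to 5657 bases from the start (chromosome 11, 69585408 to 69586594). No CpG island was assigned to it, Wrap53 was listed with it as well, and exons and introns were not used here. Its signal was 102 in R248W 1 and 52 in R248W 2, against 103 in WT 1 and 113 in WT 2. The percentiles were 53.5 and 40.8 in R248W 1 and R248W 2 and 72.8 and 57.6 in WT 1 and WT 2. Both R248W libraries were below both WT libraries, with R248W 2 the lowest, WT 1 the highest, and R248W 1 and WT 2 close to each other between them. Their means were 47.1 ± 8.94 in R248W and 65.2 ± 10.8 in WT (SD, n = 2 each), a difference of -18.1 percentile points (exact permutation p = 0.333, the smallest possible). Among the differences of all regions called in the 4 libraries it stood at percentile 1.70, a rank read after it was picked as the largest of 15. Without R248W 2 the difference was -11.0, and without WT 1 it was -9.50, so its size rested on these libraries. Both R248W libraries also stayed below both WT libraries when the mean-bin signal was ranked, with a difference of -21.6.

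Mdm2 had the highest-ranked start and no other interval. Its summit fell on the same base in all libraries, 58 bases upstream of the RefSeq start (chromosome 10, interval span 117708895 to 117711496). Of all shared regions, 15.9% had a single summit position. The signal was 328 in R248W 1 and 241 in R248W 2, against 216 in WT 1 and 328 in WT 2. The intervals reached 713 to 738 bases upstream and 1146 to 1863 bases into the gene, the side on which the p53-responsive promoter of Mdm2 lies in its first intron. The longest reach into the gene was in R248W 1, and R248W 2 had the shortest. The percentiles were 90.5 and 93.2 in R248W 1 and R248W 2 and 91.8 and 90.6 in WT 1 and WT 2. They overlapped, with a difference of 0.637 points (exact permutation p = 1).

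The Mdm2 window is shown for the run it shares with Wrap53, in capitals, and for a CCAAT box, read on the opposite strand as ATTGG (chr10:117710709-117711008, minus strand, GRCm38.p6).
Mdm2: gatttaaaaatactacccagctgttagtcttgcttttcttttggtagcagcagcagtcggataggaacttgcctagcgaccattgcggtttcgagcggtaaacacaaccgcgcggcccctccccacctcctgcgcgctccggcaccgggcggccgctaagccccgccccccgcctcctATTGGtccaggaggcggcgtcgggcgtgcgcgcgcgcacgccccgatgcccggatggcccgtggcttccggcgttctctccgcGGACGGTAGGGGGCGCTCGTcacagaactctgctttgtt
The run GGACGGTAGGGGGCGCTCGT began 11 bases downstream of the Mdm2 start and 204 bases upstream of the Wrap53 start, in the same orientation. It occurred in 2 of the 32851 RefSeq windows, on either strand, and these were the windows of Mdm2 and Wrap53. Among pairs of windows of the members and their neighbours that do not overlap on the chromosome, the next longest shared run measured 13 bases. Within the run shared by Mdm2 and Wrap53, AGGGGGCGC, letters at the core of the known CTCF motif, was present in 1.25% of all windows. This comparison was made after the sequences were seen. Both starts were accessible in all 4 libraries, at the signals given above for Mdm2 and for the shared Trp53 and Wrap53 interval.

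Ppm1d had 4 regions, of which the highest belonged to another start. The start-site interval (chromosome 11, 85310400 to 85313251) had signals of 227 in R248W 1 and 152 in R248W 2, against 174 in WT 1 and 254 in WT 2, with summits 54 to 118 bases upstream. In percentiles it was 81.8 and 83.4 in R248W 1 and R248W 2 and 87.3 and 85.0 in WT 1 and WT 2. Both R248W libraries were below both WT libraries, at means of 82.6 ± 1.11 in R248W and 86.1 ± 1.60 in WT (SD, n = 2 each), a difference of -3.52 points (exact permutation p = 0.333). Without WT 1 the difference was -2.10, and ranked by mean-bin signal it was -0.662 with the libraries overlapping. A region 12842 bases into the gene kept the same summit in all libraries, at 118 and 80 in R248W 1 and R248W 2 and 72 and 137 in WT 1 and WT 2, with overlapping percentiles. A weak region 23706 to 23754 bases from the start was called at 26 in R248W 1 and 30 in WT 2 only.

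The largest signals listed for Ppm1d were 476 in R248W 1 and 297 in R248W 2, against 281 in WT 1 and 455 in WT 2. Their summits lay 76 to 92 bases upstream of the start of the neighbouring gene Bcas3 and about 41.8 kb from that of Ppm1d (chromosome 11, 85352081 to 85353933). The highest signals of Trp53 and Trp73 also lay at starts of other genes, Wrap53 and Wrap73. At Ppm1d and Trp73 a reading of the highest assigned signal therefore describes a neighbour's start. At Trp53 it describes an interval shared with Wrap53, which also covers the start of Trp53. At Bcas3 both R248W percentiles, 96.2 and 96.1, were above both WT percentiles, 95.9 and 95.8, by 0.333 points on average (exact permutation p = 0.333). By mean-bin signal that difference was -0.304.

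The Ppm1d window (chr11:85311004-85311303, plus strand, GRCm38.p6) is shown for its cyclic AMP response element TGACGTCA and a CCAAT box read as ATTGG, both in capitals.
Ppm1d: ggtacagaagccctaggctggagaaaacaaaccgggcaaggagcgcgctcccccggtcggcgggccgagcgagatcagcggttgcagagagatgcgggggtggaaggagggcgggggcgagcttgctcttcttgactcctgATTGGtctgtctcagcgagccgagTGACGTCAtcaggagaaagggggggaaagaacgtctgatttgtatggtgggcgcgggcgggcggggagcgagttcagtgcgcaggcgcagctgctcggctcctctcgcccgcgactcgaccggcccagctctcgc
TGACGTCA began 85 bases upstream of the start. The summits lay 86 and 118 bases upstream in R248W 1 and R248W 2 and 54 bases upstream in both WT 1 and WT 2. They fell on both sides of the element, with that of R248W 1 nearer to it than a bin can resolve. Their spread of 64 bases equalled the median over all shared regions, of which 67.1% had a spread of 64 bases or less. A shift of the summit between genotypes was not tested. TGACGTCA was present in 1.79% of all windows, and CCAAT in 37.4%. The window held 30 CpG dinucleotides.

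Mdm4 had the lowest-ranked of the 4 start-site intervals. Its start-site interval (chromosome 1, 133024608 to 133026603) had signals of 157 in R248W 1 and 105 in R248W 2, against 129 in WT 1 and 193 in WT 2. The percentiles were 70.6 and 72.4 in R248W 1 and R248W 2 and 79.8 and 77.4 in WT 1 and WT 2, without overlap. The means were 71.5 ± 1.28 in R248W and 78.6 ± 1.66 in WT (SD, n = 2 each), a difference of -7.12 points (exact permutation p = 0.333), which stood at percentile 14.0 of the differences of all shared regions. Leaving out each library in turn gave -8.24 to -5.22 points. A second RefSeq start of Mdm4, at 133030587, was not inside an interval in any library. The other regions lay 8604 to 8636 bases upstream and 42436 bases from the start, past the end of the gene. The upstream region had signals of 75 and 54 in R248W 1 and R248W 2 and 58 and 82 in WT 1 and WT 2, and the far region had 63 and 58 in R248W 1 and R248W 2 and 45 and 79 in WT 1 and WT 2. Both overlapped between genotypes in percentiles.

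The window of the covered Mdm4 start (chr1:133025367-133025666, minus strand, GRCm38.p6) is poor in CpG beside those of Mdm2 and Ppm1d, with 9 dinucleotides. Capitals mark the ETS core CCGGAAG, which began 21 bases downstream of the start and was present in 8.86% of all windows.
Mdm4: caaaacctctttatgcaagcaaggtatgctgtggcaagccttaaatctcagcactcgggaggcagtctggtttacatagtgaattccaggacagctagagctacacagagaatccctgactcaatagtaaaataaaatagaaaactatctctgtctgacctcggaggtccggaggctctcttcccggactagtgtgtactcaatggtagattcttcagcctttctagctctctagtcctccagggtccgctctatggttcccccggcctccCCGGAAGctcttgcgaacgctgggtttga

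Usp7 had 3 regions in all libraries and 1 in WT 1 only. The start-site interval (chromosome 16, 8737050 to 8739807) had signals of 293 in R248W 1 and 180 in R248W 2, against 186 in WT 1 and 293 in WT 2, with summits 602 to 666 bases upstream of the start. Its window had the highest GC content of the windows examined, 86%, with 63 CpG dinucleotides. Both R248W percentiles, 88.1 and 87.5, were below both WT percentiles, 88.8 and 88.3, but the difference was only -0.76 points (exact permutation p = 0.333). Without R248W 2 it was -0.422 and without WT 1 -0.44, whereas ranking by mean-bin signal gave -5.03. As log2 of signal over the library median, R248W 1 at 1.62 lay above WT 2 at 1.61, so the genotypes overlapped on that scale. The authors placed 2 further regions 7642 and 9637 to 9946 bases upstream. Their summits lay inside the longer RefSeq span of the gene. The farther one had signals of 54 and 43 in R248W 1 and R248W 2 and 30 and 65 in WT 1 and WT 2. The nearer one was called in WT 1 only, at 35, and the closest intervals of the other libraries were 308 to 534 bases away. A region past the gene end, 52038 to 52070 bases from the start, had signals of 119 and 75 in R248W 1 and R248W 2 and 86 and 91 in WT 1 and WT 2.

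Trp73 had 5 regions, and its own start was called in 1 library of each genotype. An interval over that start (chromosome 4, 154139119 to 154141316) was listed at 37 in R248W 2 and 48 in WT 2 and not listed in R248W 1 or WT 1. The nearest intervals of those libraries were 328 and 459 bases away, and they were the strong interval at the neighbouring start of Wrap73. That interval had signals of 246 in R248W 1 and 167 in R248W 2, against 151 in WT 1 and 218 in WT 2. Its percentiles of 84.0 and 85.7 in R248W 1 and R248W 2 were above 83.9 and 80.9 in WT 1 and WT 2, by 2.46 points (exact permutation p = 0.333). The difference was 1.51 without R248W 2 and 0.996 without WT 2. A second RefSeq start inside the gene, at 154097173, was not covered in any library.

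The window of the first Trp73 start (chr4:154139826-154140125, minus strand, GRCm38.p6) is printed because it is a CpG island that was called in only some libraries. Capitals mark each of its 39 CpG dinucleotides, a count at percentile 95.8 of all windows.
Trp73: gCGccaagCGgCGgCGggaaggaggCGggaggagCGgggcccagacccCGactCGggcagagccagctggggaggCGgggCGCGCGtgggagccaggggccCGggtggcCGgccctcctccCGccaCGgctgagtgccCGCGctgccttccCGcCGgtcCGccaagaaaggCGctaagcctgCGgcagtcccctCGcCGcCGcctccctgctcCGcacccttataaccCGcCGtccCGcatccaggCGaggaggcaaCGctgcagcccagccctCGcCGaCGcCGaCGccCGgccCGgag

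One region in the Trp73 gene body was called in both R248W libraries and in neither WT library. It lay 69008 to 69088 bases from the start (chromosome 4, 154070692 to 154072142) with signals of 30 in R248W 1 and 27 in R248W 2. Both values were low, at percentiles 13.9 and 13 of those libraries' own lists. The nearest WT intervals were 4677 bases away in WT 1 and 4629 in WT 2. It was the only genotype-specific region among the 19, against 1.23% of all merged regions that were R248W-only and 0.827% that were WT-only, and 0 of the 19 were WT-only. It was not called R248W-only when each library was reduced to its best 50% or to the same number of intervals. Without WT 2 the Usp7 region called in WT 1 only counts as WT-only by definition.

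The other Trp73 regions were called in every library. Near the end of the gene, 74608 to 74672 bases from the start (chromosome 4, 154065022 to 154066063), signals were 45 in R248W 1 and 29 in R248W 2, against 33 in WT 1 and 51 in WT 2. The percentiles were 13.1 and 9.20 in R248W 1 and R248W 2 and 18.0 and 17.5 in WT 1 and WT 2, without overlap, a difference of -6.55 points (exact permutation p = 0.333). A region 34640 to 34704 bases from the start had 51 and 54 in R248W 1 and R248W 2 and 47 and 78 in WT 1 and WT 2. Its percentiles overlapped, and the difference of -8.24 points changed to 4.0 without R248W 1 and to -20.1 without R248W 2.

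Trp63 had no interval in any library. Its RefSeq span (chromosome 16, 25683763 to 25892088, 208326 bases) held 0 intervals in R248W 1, R248W 2, WT 1 and WT 2. The nearest intervals on the low-coordinate side were 257 kb away in R248W 1, 134 kb in R248W 2, 257 kb in WT 1 and 134 kb in WT 2, and those on the other side 66.2 to 66.3 kb away in each library. Of 1989 coding genes with 0.5 to 2 times its length, 74 (3.72%) likewise had no interval in their span in any library. A missing interval is not a measurement of closed chromatin, since weak signal is not listed. Among all RefSeq coding genes, 78.7% had an assigned interval.

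**Figure D2:**
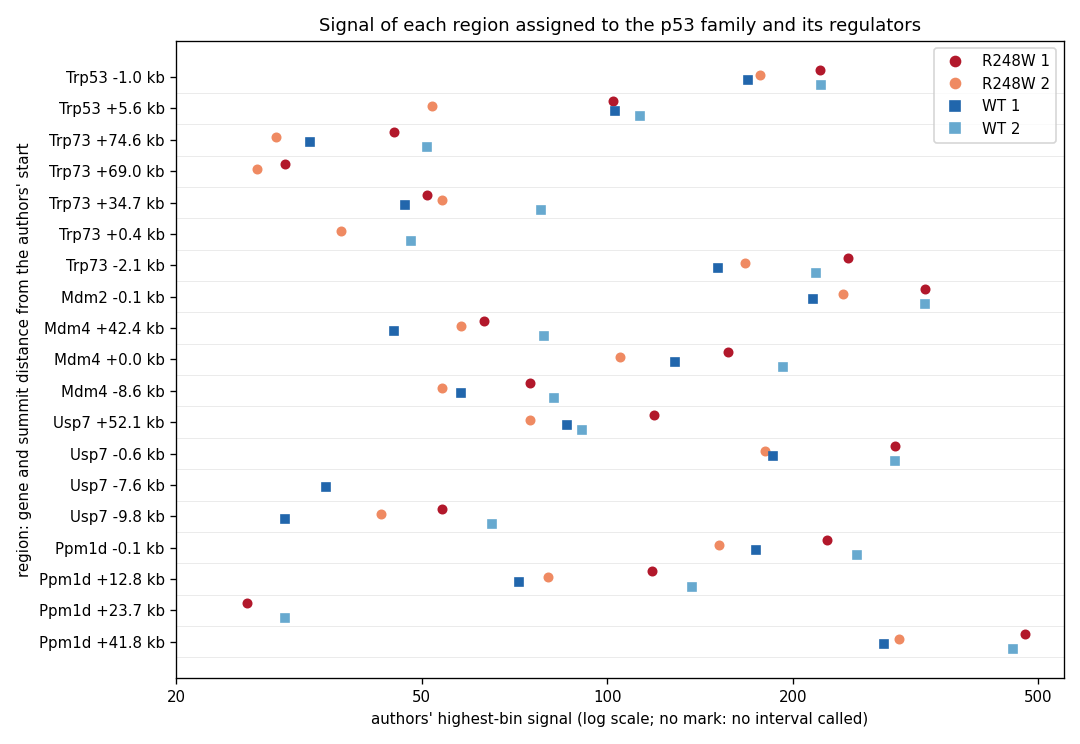
Authors' highest-bin signal (x axis, log scale) of the 19 regions (y axis, named by gene and summit distance from the start), with circles for the 2 R248W libraries and squares for the 2 WT libraries. At most regions R248W 1 and WT 2 lie to the right of R248W 2 and WT 1, and the weak Trp73 gene-body region has R248W marks only.

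The number of intervals assigned to the members did not separate the genotypes. It was 17 in R248W 1, 17 in R248W 2, 16 in WT 1 and 17 in WT 2, a difference of 0.5 between means (exact permutation p = 1). Trp73 had 4 and 5 intervals in R248W 1 and R248W 2 and 3 and 4 in WT 1 and WT 2 (exact permutation p = 0.667). Trp53, Mdm2 and Mdm4 had the same number in every library.

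Over the 15 member regions called in all 4 libraries, R248W and WT percentiles did not overlap in 7. Both R248W libraries were below both WT libraries in 5, against 15.6% of all 40492 shared regions. They were the Trp53 gene-body region, the starts of Mdm4, Ppm1d and Usp7, and the last Trp73 region. Both R248W libraries were above both WT libraries in 2, against 16.0% of shared regions, and both of these were at starts of other genes, Wrap73 and Bcas3. The share of members in the lower direction, 33.3%, was above its background and that in the higher direction, 13.3%, was near it, on 15 regions and with no test. The median difference was -0.76 points over these regions and 0.0225 over all shared regions, and 8 of the 15 were negative, against 49.7% of shared regions. Leaving out 1 library changed these counts and their background. Without R248W 1, 6 regions were higher and 5 lower in R248W, against 34.7% and 34.2% of shared regions, so the lower share of members was then at its background. Without R248W 2, 2 were higher and 10 lower, against 31.1% and 30.7%. Without WT 1, 3 were higher and 7 lower, against 32.2% and 30.9%, and without WT 2, 4 were higher and 7 lower, against 34.4% and 34.8%. Ranked by mean-bin signal over all 4 libraries, 3 were higher and 4 lower, against 15.9% and 15.4%. As log2 of signal over the library median, 2 were higher and 4 lower, against 15.2% and 15.4%.

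**Figure D3:**
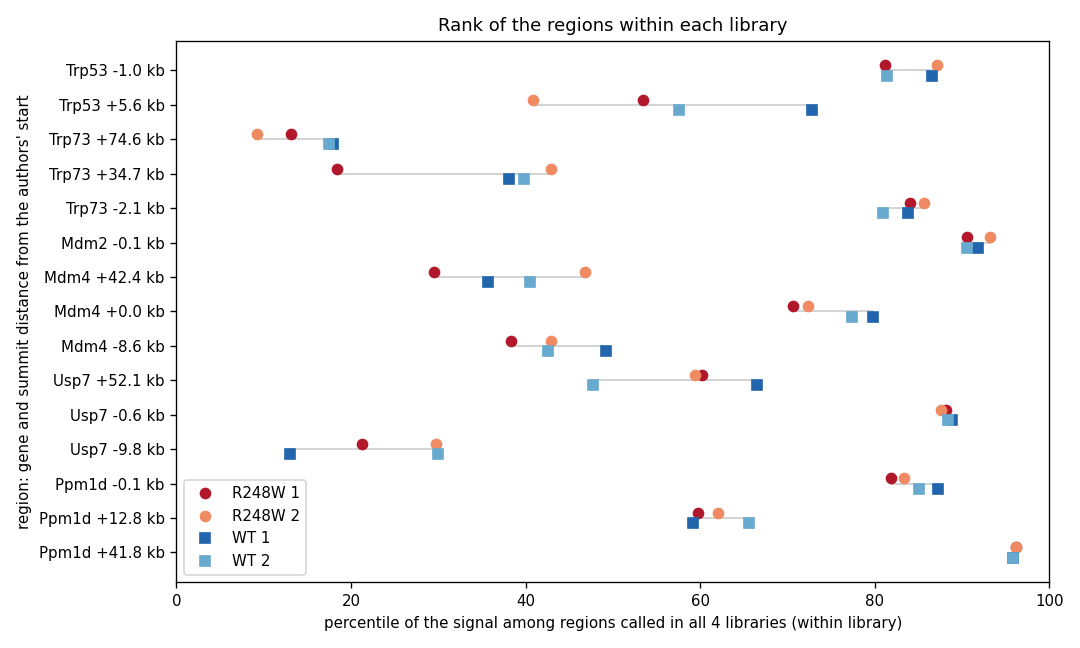
Percentile of each member region (x axis, within library, among regions called in all 4 libraries) for the 2 R248W libraries (circles) and 2 WT libraries (squares), with a grey line over the range. The start of Mdm2 stays above 90 in every library, and the Trp53 gene-body region spans 40.8 in R248W 2 to 72.8 in WT 1.

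**Figure D4:**
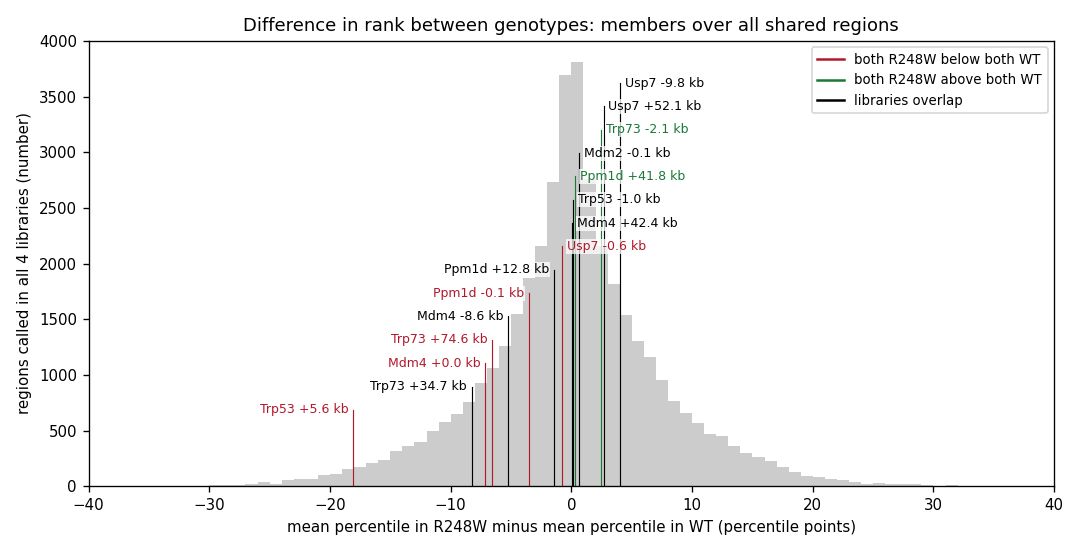
Number of regions called in all 4 libraries (grey bars, y axis) by the mean R248W percentile minus the mean WT percentile (x axis, percentile points), with a line for each of the 15 member regions; line heights only separate the names. The Trp53 gene-body region lies at -18.1 and the other members between -8.24 and 4.06.

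No complete p53 response element, taken as a pair of exact decamers close together, was found in the members' promoter windows. A window existed for 6 members, 8 windows in all. The consensus p53 decamer, whose pattern reads alike on both strands, was present in 3 of them, against 8.36% of all windows. It occurred once each in Mdm2 (GAACTTGCCT, 186 bases upstream of the start), Ppm1d (GAGCTTGCTC, 132 bases upstream) and Trp53 (GGACTTGCCC, 75 bases upstream). A pair of decamers with at most 13 bases between them was found in 0 of the 8 windows and in 0.0731% of all windows. These are matches of letters in windows of 300 bases and say nothing of binding.

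Starts with the most similar profile were sought among 9781 start-site regions assigned to a single gene, by the Euclidean distance of the percentiles over the 4 libraries. For Mdm2 they were Ehd1 and Wdr5b, at distances of 0.771 and 0.79 percentile points. For Mdm4 they were Bmf and Uimc1 at 2.77 and 3.26, for Usp7 Guk1 and Usp18 at 0.627 and 0.664, and for Ppm1d Pars2 and Pkmyt1 at 0.683 and 1.13. Of these 4 members, Mdm4 had the most distant nearest neighbours. It also had the largest SD over the libraries, 4.28 points, and whether its distances are unusual was not tested.

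Further genes that act on p53 were examined in the same way. Of 30 listed regulators, all had an assigned region, as did 78.7% of RefSeq coding genes, and 26 had a start-site summit in all libraries, against 60.1% of genes in the table. The other 4 were Prkdc, Ep300 and Ppp1r13l, with such a summit in 0 libraries, and Setd7, with 1 in 2 libraries. The list includes Wrap53, whose start-site region is the long interval described with Trp53. The highest-ranked were Trim24, a ubiquitin ligase of p53, at 99.6 and 99.1 in R248W 1 and R248W 2 and 99.5 and 99.5 in WT 1 and WT 2, and the DNA damage kinase gene Atm, at 98.2 and 98.5 in R248W 1 and R248W 2 and 98.1 and 98.5 in WT 1 and WT 2. Next came the checkpoint kinase gene Chek2, at 98.2 and 97.9 in R248W 1 and R248W 2 and 98.8 and 97.4 in WT 1 and WT 2, and the ubiquitin ligase gene Cop1, at 94.3 and 97.3 in R248W 1 and R248W 2 and 95.5 and 97.0 in WT 1 and WT 2. The genotypes overlapped at all 4. Over the 26 starts, both R248W percentiles were below both WT percentiles at 4 (Rchy1, Huwe1, Kmt5a and Smyd2) and above at 1 (Kat5), against 15.0% and 16.2% of all start-site regions. These 5 were named after their values were seen. The median difference over the 26 was -0.103 points.

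Among these regulators 1 had an R248W-only region, against 3.68% of genes in the table, and 0 had a WT-only region, against 2.33%. The region lay 200774 bases from the start of Prkdc, which encodes the catalytic subunit of the DNA-dependent protein kinase (chromosome 16, 15838393 to 15838942), at 40 in R248W 1 and 33 in R248W 2. With R248W 1, R248W 2 or WT 2 left out, 3 regulators had R248W-only regions, and with R248W 1 or WT 2 left out 2 had WT-only regions. Without WT 1 there was 1 of each kind. In these settings a call in 1 remaining library of a genotype is enough, and the share over all genes was not computed.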

How the data were processed

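The table of intervals was analysed as deposited by the authors, with each row assigned to a library by the code in its label. MACS 1.4.2 and mm10 are named per the submitters' processing notes. Alignment, filtering of reads, any shift of read ends for transposase insertion, depth and the scaling of signal were not given in the sources used here. Per the file headers, each row gives a highest-bin and a mean-bin signal, with the authors' assigned genes and CpG islands. Starts are printed as in the file and may be counted from 0.

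Intervals sharing at least 1 base were merged, and R248W-only or WT-only regions were those that 1 genotype's libraries both called and the remaining libraries both lacked. Percentiles used mid-ranks of the highest-bin signal. Differences were tested by two-sided exact permutation tests over libraries. Counts over members are set beside shares of all regions or genes, without a test.

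Sequences and gene spans came from RefSeq tables of GRCm38.p6, the same build. Windows were found for 6 of 7 members, with none for Trp63. Motifs were searched on both strands without mismatches and may overlap. They were the CCAAT box by its letters, the GC box GGGCGG, the cyclic AMP response element TGACGTCA, the E-box CACGTG, the core AGGGGGCGC of the CTCF motif, the ETS core CCGGAAG, the TATA box TATAAA and the p53 consensus decamer. Marker and regulator names were matched by symbol or an older symbol.

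The members, lists and tests were chosen with earlier results of these data known. Named genes were the 7 members, regulators with a genotype-specific region, the 4 regulators with the highest-ranked starts and the 2 starts nearest in percentiles. Counting and ranking were tested on simulated data. Alternatives were stricter lists, equal numbers of intervals, a reciprocal overlap of 50%, mean-bin signal, a log2 scale, start windows of 500 bases and 2 kb, a replicate block and each library left out. Analyses used python 3.11.15.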

Additional observations from a re-analysis of the deposited data

How the results depend on the processing

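Of the 7 member regions without overlap between genotypes, the Bcas3 start assigned to Ppm1d reversed, to -0.304 points with the mean-bin signal. Leaving out a library, or the block, all but fixes the sign of these 7, so their direction there is no sign of stability. The R248W-only count at the members was 0 with the best 50% of each list and 0 with equal numbers of intervals. At Trp73 the best 50% kept neither R248W call, and equal numbers dropped that of R248W 1. Ranked among the best 50% alone, the differences were -13.8 points at the Mdm4 start and -6.85 at the Ppm1d start. They were -1.48 at the Usp7 start and 0.649 at the Bcas3 start, also larger than before. Percentiles over fewer regions are spaced more widely, so these larger values do not by themselves mean stronger differences. For the other regulators, that setting gave 0 R248W-only genes and 1 WT-only gene. With 1 library left out, the WT-only count at the members was 0 to 1, the R248W-only and WT-only counts at the regulators 1 to 3 and 0 to 2, and the regions higher and lower in R248W 2 to 6 and 5 to 10. With 1 library left out the shares of all shared regions that are higher or lower also increase, as given above. Such shares were not computed for R248W-only and WT-only regions.

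With the replicate number as a block, 2 regions were higher and 5 lower in R248W in both pairs, against 25.0% and 24.2% of shared regions, and the difference in the number of intervals stayed at 0.5. The numbers share only a name: the correlation of deviations between same-numbered libraries was 0.0492. Unknown depth limits every absence of a call, and 2 libraries per genotype limit every comparison.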
